A study of Homo sapiens with 8 samples.

Results

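The 10 genes described here encode heat shock proteins and their co-chaperones: HSPA1A, HSPA1B, HSPA8, HSP90AA1, HSPH1, DNAJB1, HSPB1, HSPD1, HSPE1 and BAG3. They were chosen by symbol, and each symbol was matched to an Ensembl identifier through release 29 of GENCODE. All 10 were found among the 58735 genes with values, and all 10 were among the 16528 genes tested. The measurements are RNA-sequencing levels in U2OS, an established human osteosarcoma cell line, in 4 groups of 2 libraries each. Control cells, whose genotype is labelled WT, carried a control shRNA (shControl). KD cells carried a WSB2 shRNA (shWSB2), a short hairpin RNA that directs degradation of the transcript of WSB2, a substrate-recognizing subunit of a ubiquitin ligase. Each cell population was either unstimulated or stimulated for 5 h with TNF-α, a cytokine that activates the transcription factor NF-κB. In all 4 groups the shRNA was carried by cells grown in the same medium with fetal bovine serum, and the study's methods describe lentiviral infection with puromycin selection, so the KD groups are selected populations with a lowered WSB2 level and not a WSB2-null line. Which WSB2 shRNA was used and the TNF-α concentration for these libraries are not given in the sources used here. Nothing states that the 2 libraries of a group came from separate cultures, and p-values then measure only the spread between these libraries.

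Chaperones bind proteins that are unfolded, newly made or damaged, and help them fold, hold them in solution or pass them on for degradation. HSP70 proteins work in cycles driven by ATP: J-domain proteins such as DNAJB1 deliver clients and start ATP hydrolysis, and nucleotide exchange factors such as HSPH1 and BAG3 reset the cycle. HSP90 proteins act later on clients such as kinases and receptors, small heat shock proteins such as HSPB1 hold clients without ATP, and HSPD1 with its lid HSPE1 forms the folding chamber of mitochondria. In a heat shock response the transcription factor HSF1 forms trimers and binds heat shock elements, which are repeats of the 5-base unit nGAAn in alternating orientation, and raises many of these genes together.

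The heat shock elements ahead of the member genes are shown because these elements are the known binding sites of HSF1 at inducible chaperone genes. In the RefSeq promoter windows on GRCh38.p14, the 250 bases before each annotated start were searched for the 2-unit motifs GAANNTTC and TTCNNGAA, which read the same on both strands, and for the 3-unit motifs GAANNTTCNNGAA and TTCNNGAANNTTC, which hold the shorter motifs within them and are each other's reverse complement. A 2-unit motif occurred in 7 of the 14 windows of the members, belonging to 7 genes, and in 11.6% of 34943 windows of all genes. A 3-unit motif occurred in 3 of the 14 windows and in 0.441% of all windows. Capitals mark the motif bases, and each stretch is written 5′ to 3′ on the strand of its gene. The stretches of HSPA8, HSP90AA1 and HSPD1 overlap exons of other transcripts of these genes (for HSPD1 also of HSPE1), so only 30 bases at the motif are shown.
HSPA1A, chr6:31815426-31815455, plus strand, 117 to 88 bases before the start: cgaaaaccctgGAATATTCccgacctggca
HSPA1B, chr6:31827622-31827651, plus strand, 116 to 87 bases before the start: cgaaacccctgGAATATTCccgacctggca
HSPA8, chr11:123062338-123062367, minus strand, 231 to 202 bases before the start: tGAAAGTTCCAGAAcgctgcggtgagtgcg
HSP90AA1, chr14:102087104-102087133, minus strand, 89 to 60 bases before the start of its shorter form: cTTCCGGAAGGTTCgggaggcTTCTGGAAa
DNAJB1, chr19:14518426-14518485, minus strand, 88 to 29 bases before the middle of its annotated starts: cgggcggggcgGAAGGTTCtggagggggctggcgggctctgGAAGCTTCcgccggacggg
HSPB1, chr7:76302480-76302509, plus strand, 193 to 164 bases before the start: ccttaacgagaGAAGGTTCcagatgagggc
HSPD1, chr2:197500057-197500086, minus strand, 246 to 217 bases before the downstream start: tTTCTGGAAAGTTCTGGAAccgagcgaggc
The HSPA1A and HSPA1B stretches carry the same motif bases. HSPA8 carried a further 3-unit motif, TTCTGGAAGGTTC, 55 bases before its start. The searched letters were not in the windows of HSPH1, HSPE1 and BAG3.

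The libraries held 15601098 to 18677023 reads assigned to genes. Both unstimulated KD libraries stood apart from the other 6. In them 4.10 and 4.42% of reads were mitochondrial, against 1.11 to 2.03% in the others, GC content averaged over reads was 49.4 and 49.9%, against 52.5 to 53.2%, and 26225 and 26397 genes had a read, against 22072 to 22957. These libraries are the whole group, so what sets them apart cannot be told apart from WSB2 knockdown without stimulation, and no comparison that uses the group could be made without them. WSB2 was 27.7 and 27.997 FPKM in unstimulated control cells, 8.38 and 8.52 in unstimulated KD cells, 25.0 and 25.3 in stimulated control cells and 9.002 and 9.18 in stimulated KD cells. These are log2 fold changes of -1.61 without and -1.37 with TNF-α (limma, adjusted p = 0.000119 and 0.00113). NFKBIA, an NF-κB target and inhibitor, rose with TNF-α by 2.76 on the log2 scale in control and 3.34 in KD cells, and TNFAIP3, another such inhibitor, by 3.87 and 3.57. For the labelled cell type, VIM was 146 to 239.7 FPKM, SPARC 216 to 293 and COL1A1 172 to 269, while COL1A2 was at most 0.0934. The epithelial gene KRT8 was 126 to 362 FPKM but EPCAM and CDH1 stayed below 0.482 and 0.123, and the 3 leukocyte and 3 endothelial markers were at most 0.378 FPKM. Of the 6 mesenchymal and bone markers, VIM, SPARC, COL1A1 and ALPL were lowest and RUNX2 was highest in the unstimulated KD libraries, and KRT8 was 142 and 126 there against at least 280.1 elsewhere. The part of these library features in the results was not tested, except by the correction for GC content given further on.

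Heat shock genes in unstimulated cells went in opposite directions with WSB2 knockdown. HSP90AA1, HSPH1 and HSPD1 were higher in KD cells, with HSP90AA1 at a mean of 224.6 FPKM against 71.0 in control cells. HSPB1, HSPA1A, HSPA1B, DNAJB1, HSPA8 and BAG3 were lower, with HSPB1 at 455 against 1095 FPKM. Of the 10 members 3 rose, where 29.8% of all genes tested rose, and 6 fell, where 30.2% fell, so changes were frequent in all genes of this comparison. In bulk RNA, fewer cells that express a gene and less of its RNA per cell cannot be told apart. The difference of HSPE1 did not pass the test. With TNF-α, 0 of 10 members passed the test between KD and control cells, where 0.115% of all genes tested passed. FPKM are fragment counts divided by exon length and library size, so levels set side by side between genes depend on that length. The length covers all annotated exons of a gene. For HSPE1 it was 1977 bases where its longest transcript held 950, and for HSPA1A both were 2483. A fold change is the difference of group means on the log2(FPKM + 1) scale, which understates changes at low levels. A gene counts as called where the Benjamini-Hochberg adjusted p of limma, over all genes tested, is below 0.05.

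**Figure D1:**
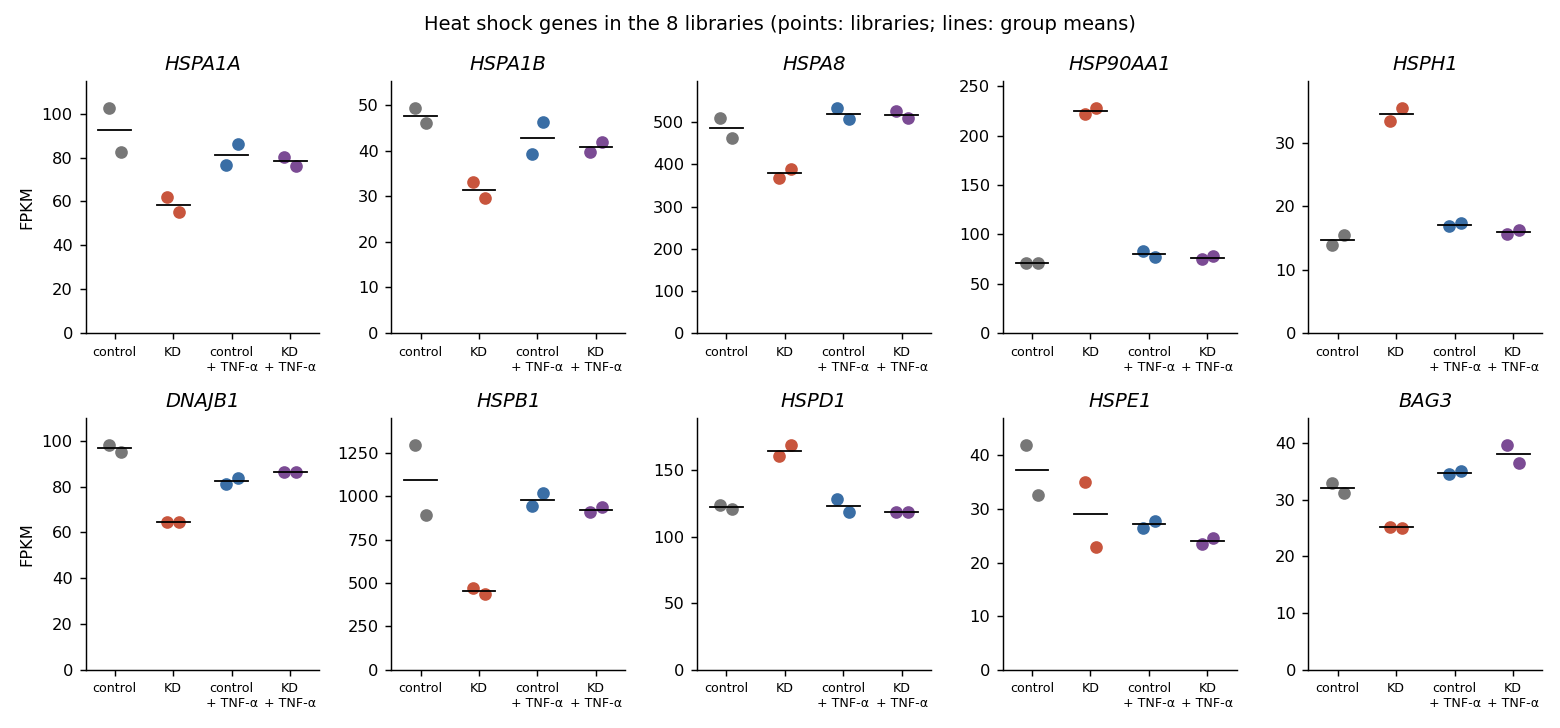
FPKM (vertical axis, from 0) of each of the 10 genes in the 4 groups (horizontal axis), with points for the 2 libraries of a group and lines for group means. The unstimulated KD libraries lie apart from the other 6 in HSP90AA1 (221 and 228 FPKM against 70.9 to 82.6), HSPH1 and HSPD1 upward and in HSPA1A, HSPA1B, HSPA8, DNAJB1, HSPB1 and BAG3 downward.

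In unstimulated control cells the order of levels was HSPB1 (1095 ± 285 FPKM, SD, n = 2), HSPA8 (486 ± 34.5), HSPD1 (122 ± 2.18), DNAJB1 (96.8 ± 2.23), HSPA1A (92.7 ± 14.1), HSP90AA1 (71.0 ± 0.241), HSPA1B (47.7 ± 2.32), HSPE1 (37.3 ± 6.60), BAG3 (32.1 ± 1.2) and HSPH1 (14.7 ± 1.04). The libraries of DNAJB1 and HSPA1A overlapped, as did those of HSPE1 and BAG3, and the other neighbours in this order did not overlap. HSPB1 ranked 30 and HSPA8 59 among all genes by mean FPKM over the 8 libraries. In unstimulated KD cells HSP90AA1 stood between HSPA8 and HSPD1. These orders are of FPKM and depend on the exon lengths used.

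HSPA1A (ENSG00000204389, chr6:31815464-31817946 on GRCh38, plus strand) encodes the stress-inducible HSP70. It was 102.6 and 82.7 FPKM in unstimulated control cells, 61.9 and 55.2 in unstimulated KD cells, 76.5 and 86.1 in stimulated control cells and 80.4 and 76.0 in stimulated KD cells. Only the unstimulated KD libraries stood below all others, with a log2 fold change of -0.65 against control (SE 0.12, adjusted p = 0.00254). TNF-α in KD cells brought a rise of 0.41 (SE 0.12, adjusted p = 0.0189), while in control cells the libraries overlapped at -0.18 (adjusted p = 0.506). With the correction for GC content given further on, knockdown without TNF-α had -0.07 (adjusted p = 0.448) and TNF-α in KD cells -0.19.

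HSPA1B (ENSG00000204388, chr6:31827735-31830255, plus strand) is the neighbouring gene for an almost identical HSP70. It was 49.3 and 46.1 FPKM in unstimulated control, 33.2 and 29.7 in unstimulated KD, 39.2 and 46.3 in stimulated control and 39.8 and 41.9 in stimulated KD cells. It followed HSPA1A, with -0.59 in unstimulated KD cells (SE 0.10, adjusted p = 0.00171) and a rise of 0.37 with TNF-α in KD cells (SE 0.10, adjusted p = 0.0145). Of the 150-base windows of the longest HSPA1A transcript 67.1% occur unchanged in HSPA1B, so how reads were divided between these genes is uncertain. Added up as a single gene they gave -0.63 (adjusted p = 0.00213) for knockdown without TNF-α. With the correction for GC content given further on, HSPA1B had -0.03 for knockdown without TNF-α (adjusted p = 0.753). Its rise with TNF-α in KD cells turned to -0.21. HSPA1B also shares 920 exonic bases with AL671762.1 on its strand.

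HSPA8 (ENSG00000109971, chr11:123057489-123063230, minus strand) encodes the constitutive HSP70 of the cytosol. It was 510.4 and 462 FPKM in unstimulated control, 368 and 389.9 in unstimulated KD, 534 and 507 in stimulated control and 527 and 509 in stimulated KD cells. The unstimulated KD libraries were again lowest, with a log2 fold change of -0.36 (SE 0.11, adjusted p = 0.0275), and the other groups overlapped. This call was lost without either unstimulated KD library (adjusted p = 0.142 and 0.0836, fold changes -0.32 and -0.40) and with total-read scaling, described further on, at -0.08 (adjusted p = 0.508). For TNF-α in KD cells the log2 fold change was 0.45 (SE 0.11, adjusted p = 0.00982), but 0.07 and not called with total-read scaling (adjusted p = 0.526).

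DNAJB1 (ENSG00000132002, chr19:14514770-14529770, minus strand) is the main J-domain partner of the stress-inducible HSP70. It was 98.4 and 95.2 FPKM in unstimulated control, 64.8 and 64.5 in unstimulated KD, 81.0 and 84.0 in stimulated control and 86.6 and 86.5 in stimulated KD cells. No groups overlapped. The log2 fold change was -0.58 for knockdown without TNF-α (SE 0.07, adjusted p = 0.000408) and 0.42 for TNF-α in KD cells (SE 0.07, adjusted p = 0.00145). With total-read scaling, described further on, the latter was 0.04 and not called (adjusted p = 0.603). In control cells the stimulated libraries were lower, at -0.23, which did not pass over all genes (SE 0.07, unadjusted p = 0.0137, adjusted p = 0.148).

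BAG3 (ENSG00000151929, chr10:119651370-119677819, plus strand) is a nucleotide exchange factor that directs HSP70 clients to autophagy. It was 32.9 and 31.2 FPKM in unstimulated control, 25.2 and 25.0 in unstimulated KD, 34.5 and 35.1 in stimulated control and 39.7 and 36.5 in stimulated KD cells. The order of groups did not overlap anywhere, with the unstimulated KD cells lowest and the stimulated KD cells highest. The fold change was -0.34 for knockdown without TNF-α (SE 0.07, adjusted p = 0.00516) and 0.58 for TNF-α in KD cells (SE 0.07, adjusted p = 0.000355). With total-read scaling the former was -0.07 and not called (adjusted p = 0.428). With the correction for GC content given further on it was 0.16 and not called (adjusted p = 0.085). With TNF-α the KD libraries were above control by 0.13, with an adjusted p of 0.769 and a 95% interval from -0.05 to 0.30.

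HSPH1 (ENSG00000120694, chr13:31134974-31162388, minus strand) encodes HSP110, an exchange factor related to HSP70. It was 13.96 and 15.4 FPKM in unstimulated control, 33.5 and 35.5 in unstimulated KD, 16.9 and 17.3 in stimulated control and 15.6 and 16.2 in stimulated KD cells. The unstimulated KD libraries held 2.35 times the control mean, a log2 fold change of 1.18 (SE 0.08, adjusted p = 0.000119). In KD cells the level fell by 1.07 on the log2 scale with TNF-α (SE 0.08, adjusted p = 5.84e-05), while in control cells the libraries were higher by 0.21 without passing over all genes (unadjusted p = 0.0313, adjusted p = 0.227).

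HSP90AA1 (ENSG00000080824, chr14:102080738-102139699, minus strand) encodes the stress-inducible cytosolic HSP90. It was 70.9 and 71.2 FPKM in unstimulated control, 221 and 228 in unstimulated KD, 82.6 and 76.8 in stimulated control and 74.7 and 78.0 in stimulated KD cells. The unstimulated KD libraries were 3.16 times the control mean, a log2 fold change of 1.65 (SE 0.08, adjusted p = 0.000119). With TNF-α in KD cells the level fell by 1.54 on the log2 scale (SE 0.08, adjusted p = 1.94e-05). Its constitutive relative HSP90AB1, the most abundant of the HSP90 genes here, was 1145 and 1121 FPKM in unstimulated control and 885 and 889 in unstimulated KD cells, and its difference of -0.35 did not pass the test (adjusted p = 0.0588). The exons of HSP90AA1 overlap 197 bases of WDR20 on the opposite strand, and whether counting used strand is not given in the sources used here.

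HSPB1 (ENSG00000106211, chr7:76302544-76304295, plus strand) encodes HSP27, a small heat shock protein. It was 1297 and 894 FPKM in unstimulated control, 473 and 438 in unstimulated KD, 946 and 1016 in stimulated control and 910.5 and 935 in stimulated KD cells. The unstimulated control libraries differed widely from each other, yet both lay above the unstimulated KD libraries, at -1.24 for knockdown (SE 0.19, adjusted p = 0.000934). The fold change ran from -1.51 without unstimulated control library 2 to -0.97 without library 1. TNF-α in KD cells raised HSPB1 by 1.02 (SE 0.19, adjusted p = 0.00217).

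HSPD1 (ENSG00000144381, chr2:197486581-197516737, minus strand) and HSPE1 (ENSG00000115541, chr2:197499994-197503457, plus strand), for the mitochondrial chaperonin and its lid, lie head to head and overlap by 281 exonic bases. HSPD1 was 124 and 120.4 FPKM in unstimulated control, 160.3 and 169 in unstimulated KD, 128 and 119 in stimulated control and 118 and 119 in stimulated KD cells. Its unstimulated KD libraries were highest, by 0.43 against control (SE 0.08, adjusted p = 0.00282), and TNF-α in KD cells lowered it by a log2 fold change of -0.47 (SE 0.08, adjusted p = 0.00166). HSPE1 was 42.0 and 32.6 FPKM in unstimulated control, 35.0 and 23.0 in unstimulated KD, 26.4 and 27.7 in stimulated control and 23.5 and 24.6 in stimulated KD cells. Its unstimulated groups overlapped and each had a wide spread. The difference of -0.37 was not called (SE 0.19, adjusted p = 0.123) and became -0.66 (adjusted p = 0.0109) without unstimulated KD library 1 and -0.08 (adjusted p = 0.698) without library 2. For TNF-α in KD cells HSPE1 had -0.23 and was not called (SE 0.19, adjusted p = 0.315), but it was called lower with total-read scaling, at -0.60. Besides HSPD1, HSPE1 shares 192 exonic bases with HSPE1-MOB4 on its own strand, so its level is uncertain.

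**Figure D2:**
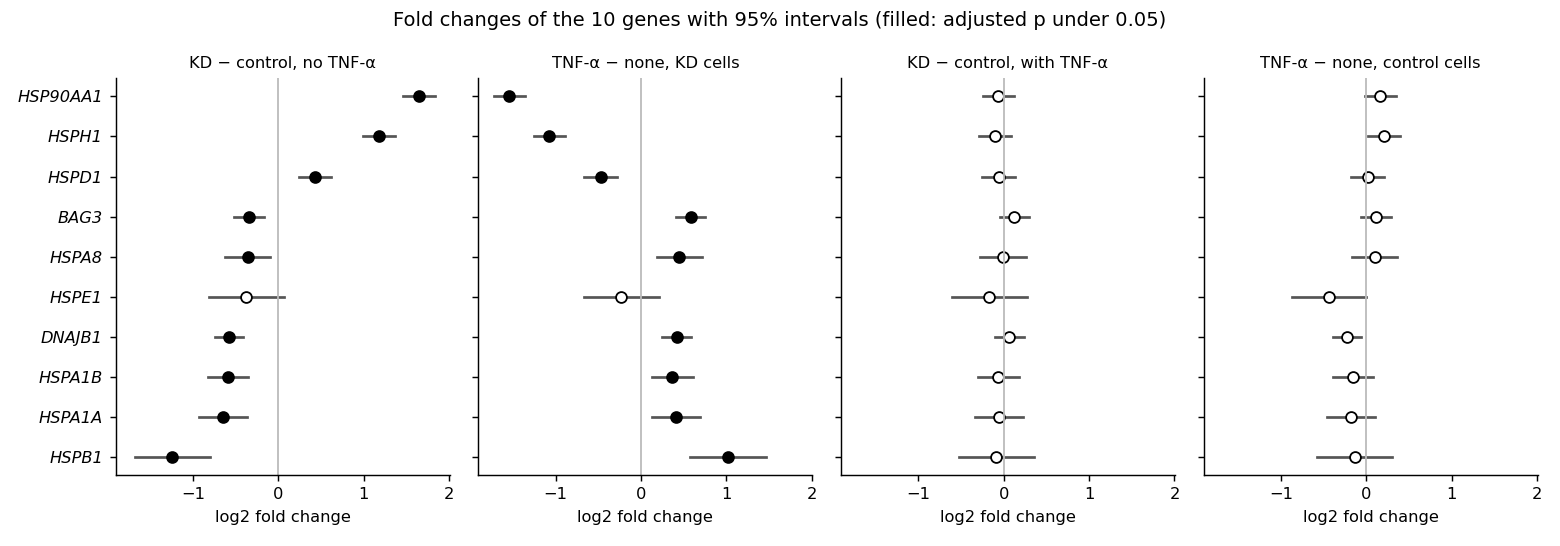
Log2 fold changes (horizontal axis) of the 10 genes (rows) in 4 comparisons, with 95% intervals as lines and filled points where the adjusted p is under 0.05. The values for knockdown without TNF-α run from -1.24 (HSPB1) to 1.65 (HSP90AA1), those for TNF-α in KD cells from -1.54 to 1.02, and every point is open in the other 2 panels.

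Without TNF-α, 9 of the 10 members had KD libraries that did not overlap with the control libraries, which was so for 79.8% of all genes tested. The members' median log2 fold change was -0.36, and that of all genes tested was -0.0010. These medians were -0.09 and 0.13 with total-read scaling and -0.05 and -0.02 with the correction for GC content given further on, so how far the members as a whole lay below all genes depended on the processing. The members' levels added up to 2341 and 1850 FPKM in unstimulated control cells and 1476 and 1458 in unstimulated KD cells. In stimulated cells the sums were 1965 and 2015 FPKM in control and 1916 and 1923 in KD cells. HSPB1 and HSPA8 make up most of these sums. As a share of reads the members went the other way without TNF-α, with 0.627 and 0.569% in control and 0.639 and 0.651% in KD cells. Both unstimulated KD libraries had been divided by 1.21 times their total reads in making the FPKM, against 0.925 to 1.03 times in the other 6.

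The comparison of KD with control cells under stimulation is the one in which the study examined NF-κB target genes. In stimulated cells the members' log2 fold changes between KD and control ran from -0.17 (HSPE1) to 0.13 (BAG3). With limma 0 of 10 passed, where 0.115% of all genes tested were called in either direction. An unadjusted p under 0.05 was reached by 0 members, against 1348 of the 16528 genes tested. The smallest adjusted p of the members was 0.769, and the voom fit of recovered reads also called 0. The intervals leave room for changes, from the narrow -0.10 to 0.23 for DNAJB1 to -0.60 to 0.27 for HSPE1 and -0.53 to 0.35 for HSPB1. Each gene's spread was estimated over all 8 libraries, the unstimulated ones included. For HSPE1 the SD was 6.60 and 8.49 FPKM in unstimulated control and KD cells, against 0.921 and 0.799 in stimulated ones. For HSPB1 the SD was 285 and 24.6 FPKM in unstimulated control and KD cells, against 49.5 and 17.7 in stimulated ones. The widths for HSPE1 and HSPB1 thus do not measure the stimulated libraries alone. HSPH1, HSPB1 and HSPE1 had lower and DNAJB1 and BAG3 higher KD libraries without overlap, so 5 of 10 members did not overlap, against 46.2% of all genes tested.

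In control cells, the response to TNF-α passed for 0 of 10 members with limma, where 4.24% of all genes tested were called in either direction. An unadjusted p under 0.05 was reached by 2 members, DNAJB1 and HSPH1, against 2899 of the 16528 genes tested. The smallest adjusted p of the members was 0.148. The voom fit called 0. The log2 fold changes ran from -0.44 (HSPE1, 95% interval -0.87 to 0.00) to 0.21 (HSPH1). In 5 of 10 members the libraries did not overlap, against 42.5% of all genes tested, with HSP90AA1, HSPH1 and BAG3 higher and DNAJB1 and HSPE1 lower after stimulation. Without unstimulated control library 2, HSPH1 was called at 0.28 (adjusted p = 0.0474), DNAJB1 at -0.25 (adjusted p = 0.0394) and HSPB1 at -0.40 (adjusted p = 0.0438).

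In KD cells 9 of the 10 members were called for TNF-α: 6 rose, where 31.1% of all genes tested rose, and 3 fell, where 31.4% fell. The same 9 members had libraries without overlap, against 84.8% of all genes tested. This comparison and that of knockdown without TNF-α share the unstimulated KD libraries, and the 3 members that fell are those that were higher in these libraries. With the libraries scaled to total reads instead of the authors' library size, 2 members rose, HSPB1 and BAG3. With it 4 fell, namely HSP90AA1, HSPH1, HSPD1 and also HSPE1, at -0.60. The calls of HSPA1A, HSPA1B, HSPA8 and DNAJB1 were lost. That scaling moved the median of all genes away from 0, to a log2 fold change of -0.19 for TNF-α in KD cells and 0.13 for knockdown without TNF-α.

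The difference between the knockdown effects with and without TNF-α was tested as an interaction. It was positive and called in 5 members, against 23.8% of all genes tested, and negative and called in 3, against 22.3%. HSP90AA1 gave -1.71 (SE 0.11, adjusted p = 0.00103), HSPH1 -1.28 (SE 0.11, adjusted p = 0.00103) and HSPD1 -0.49 (SE 0.12, adjusted p = 0.0119). In the other direction HSPB1 gave 1.15 (SE 0.27, adjusted p = 0.0103), DNAJB1 0.64, HSPA1A 0.59, HSPA1B 0.53 and BAG3 0.47. HSPA8 at 0.35 (adjusted p = 0.113) and HSPE1 at 0.21 (adjusted p = 0.557) did not pass.

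Direction in the unstimulated KD cells went with GC content of the transcript. The members that rose had the lowest GC content of the 10, namely HSPH1 (40.0%), HSPD1 (44.2%) and HSP90AA1 (45.2%). HSPA8 had 47.0%, HSPE1 50.2%, DNAJB1 53.0%, BAG3 56.9%, HSPA1B 58.7%, HSPA1A 59.7% and HSPB1 64.3%. Genes tested within 2 percentage points of HSPH1 in GC content had a median log2 fold change of 0.48, against its 1.18. The same median was 0.15 near HSP90AA1, which had 1.65, and -0.63 near HSPB1, which had -1.24. Near BAG3 it was -0.39, and BAG3 itself had -0.34. Near HSPA8 the median was 0.06, while HSPA8 itself went the other way, at -0.36.

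**Figure D3:**
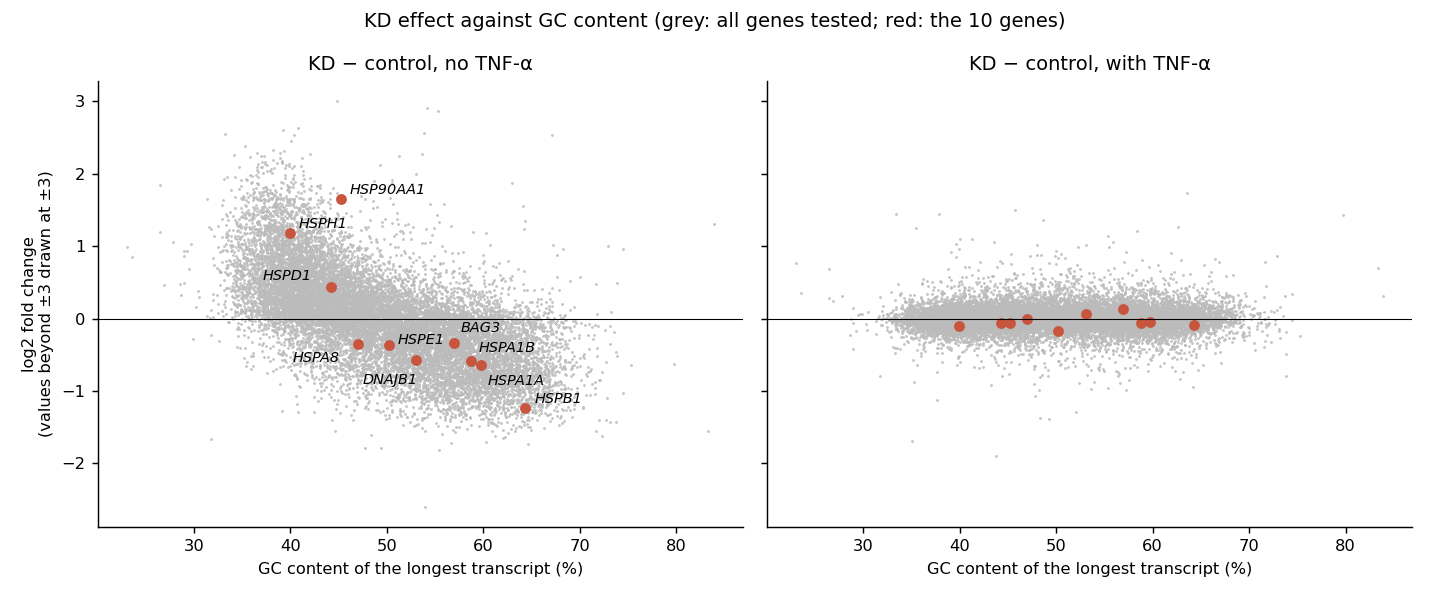
Log2 fold change of knockdown (vertical axis) against GC content of the longest transcript in percent (horizontal axis), without TNF-α (left) and with TNF-α (right), with grey points for all genes tested and red points for the 10 genes. On the left the grey cloud falls from genes of low to genes of high GC content and HSP90AA1, at 45.2% and 1.65, lies at its upper edge, while on the right the 10 genes lie between -0.17 and 0.13.

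When each library was corrected for GC content and exon length with splines, HSP90AA1 kept 1.498 (adjusted p = 0.000121), HSPH1 0.52 (adjusted p = 0.000704), HSPD1 0.26 (adjusted p = 0.0101), HSPA8 -0.37 (adjusted p = 0.00874), HSPB1 -0.59 (adjusted p = 0.00318) and DNAJB1 -0.26 (adjusted p = 0.00644) for knockdown without TNF-α. The calls of HSPA1A at -0.07, HSPA1B at -0.03 and BAG3 at 0.16 were lost. In the interaction the correction left HSP90AA1, HSPH1, HSPD1, HSPB1 and DNAJB1 called, at -1.57, -0.62, -0.32, 0.51 and 0.31, and HSPA1A, HSPA1B and BAG3 between -0.03 and 0.02. For TNF-α in KD cells it turned HSPA1A and HSPA1B to falls, at -0.19 and -0.21 (adjusted p = 0.0466 for each).

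**Figure D4:**
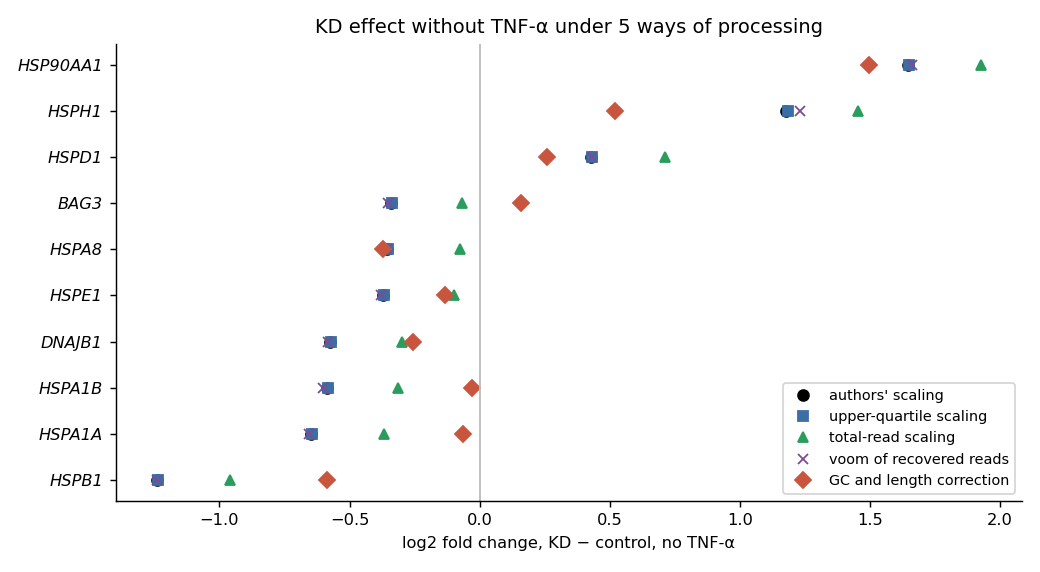
Log2 fold change of knockdown without TNF-α (horizontal axis) for the 10 genes (rows), with a marker for each of 5 ways of processing. HSP90AA1 ranges from 1.498 with the correction for GC content and length to 1.93 with total-read scaling, and BAG3 crosses 0 with the correction, at 0.16.

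The factors that drive heat shock genes differed in direction. HSF1, the main stress-activated factor, was 74.6 and 59.9 FPKM in unstimulated control, 35.5 and 31.6 in unstimulated KD, 70.7 and 81.5 in stimulated control and 80.7 and 83.0 in stimulated KD cells. Knockdown without TNF-α gave a log2 fold change of -0.98 (SE 0.12, adjusted p = 0.00045), or -0.44 with the correction for GC content and length. HSF2, a related factor, was 3.83 and 4.66 FPKM in unstimulated control and 7.17 and 7.90 in unstimulated KD cells, a rise of 0.71 (SE 0.11, adjusted p = 0.00106), or 0.33 with the correction. With TNF-α neither differed between KD and control cells at the adjusted threshold (0.11 and -0.07, adjusted p = 0.940 and 0.967). These are transcript levels, and the activity of HSF1, set largely by trimer formation and phosphorylation, was not measured.

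The wider chaperone network was read from 9 lists with 115 tested genes. For knockdown without TNF-α, 31 list genes rose, where 29.8% of all genes tested rose, and 56 fell, where 30.2% fell. Total-read scaling gave 42 that rose and 43 that fell, and the correction for GC content and length 18 and 57. The median of the list genes was -0.22 on the log2 scale, but 0.04 with total-read scaling. In the list of HSP70 and HSP110 proteins 4 rose and 5 fell of 11 tested, but 4 rose and 1 fell with the correction. HSPA4, another HSP110-type exchange factor, rose from a mean of 42.7 to 74.5 FPKM (0.79), and HSPA13 rose by 1.26. Among J-domain co-chaperones 6 rose and 7 fell of 18, but 3 rose and 9 fell with the correction. The largest change in that list was the rise of DNAJC13, which works on endosomes, from 1.77 to 9.41 FPKM (1.93). Among exchange factors and other HSP70 partners 4 rose and 5 fell of 10, but 2 rose and 6 fell with the correction. STUB1, the ubiquitin ligase that marks chaperone clients, was at -1.30 and the HSP70-binding HSPBP1 at -1.24.

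Among HSP90 proteins and their co-chaperones 6 rose and 7 fell of 17, but 2 rose and 9 fell with the correction for GC content and length. CHORDC1, an HSP90 co-chaperone, rose by 1.04, but only by 0.17 (adjusted p = 0.129) with the correction, and the immunophilin FKBP4 changed by -0.96. Small heat shock proteins had 0 that rose and 4 that fell of 5 tested, with CRYAB, αB-crystallin, going from 27.0 to 9.51 FPKM (-1.40). The correction for GC content and length left 0 that rose and 2 that fell among them. HSPB7, among those that fell, was low throughout, at 0.55 FPKM in control and 0.16 in KD cells. Of the cytosolic chaperonin TRiC and its partner prefoldin 1 gene rose and 7 fell of 14, with PFDN5 at -1.18 and CCT7 at -1.07. With total-read scaling that list had 6 that rose and 5 that fell.

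Among mitochondrial chaperones and proteases 5 rose and 8 fell of 17, but 2 rose and 9 fell with the correction for GC content and length. The proteases CLPP and LONP1 changed by -1.19 and -1.12. Among chaperones of the endoplasmic reticulum 4 rose and 11 fell of 19, but 6 rose and 7 fell with total-read scaling. SDF2L1, a partner of BiP, went from 204 to 76.3 FPKM (-1.40), and DNAJC10 and DNAJC3, J-domain proteins of that compartment, rose by 1.42 and 1.28. Of the heat shock transcription factors and their partners 2 rose and 2 fell of 5. The correction for GC content and length left smaller values for the list genes named here, at -0.63 for STUB1, -0.58 for HSPBP1, -0.76 for SDF2L1, -0.54 for CLPP, -0.59 for LONP1, 0.56 for DNAJC10, 0.73 for DNAJC3, 0.63 for HSPA13 and 0.44 for HSPA4. DNAJC13 had 1.33, CRYAB -1.04, CCT7 -0.81, FKBP4 -0.80 and PFDN5 -1.13 with it.

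**Figure D5:**
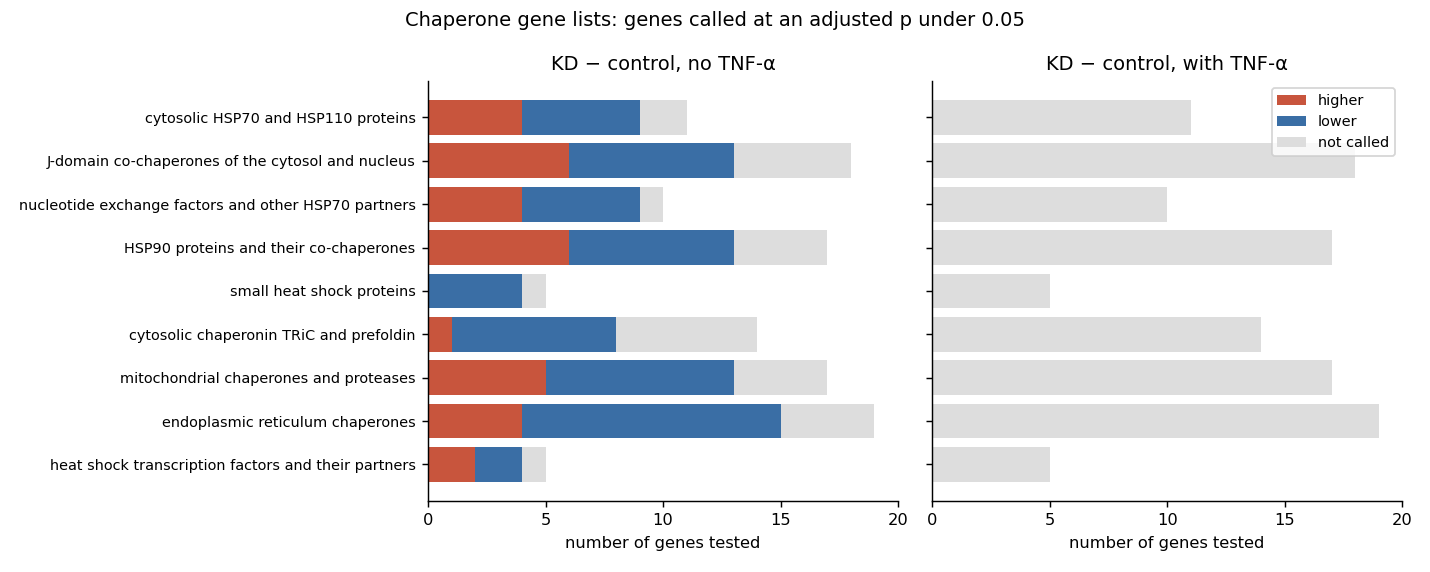
Number of tested genes (horizontal axis) in each of the 9 chaperone lists (rows) that were higher (red), lower (blue) or not called (grey) in KD against control cells, without TNF-α (left) and with TNF-α (right). The bars on the left hold 4 higher and 11 lower genes for the endoplasmic reticulum (6 and 7 with total-read scaling, which is not drawn), and all bars on the right are grey.

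With TNF-α, limma called 0 of the 115 list genes between KD and control cells, where 0.115% of all genes tested were called. Of the list genes 7 had an unadjusted p under 0.05, against 1348 of the 16528 genes tested, and the voom fit called 0. With the correction for GC content and length CRYAB was called, at -0.71 (adjusted p = 0.0382). In control cells limma with the authors' scaling called 1 list gene higher and 0 lower with TNF-α. The gene that rose was TOMM34, an HSP70 and HSP90 co-chaperone, from 72.4 to 97.1 FPKM (0.42, adjusted p = 0.0358). Of all genes tested 4.24% were called in either direction. An unadjusted p under 0.05 was reached by 17 list genes, against 2899 of the 16528 genes tested. TOMM34 was not called with upper-quartile scaling, at 0.35 (adjusted p = 0.0783). The voom fit had 1 that rose and 1 that fell, total-read scaling 1 and 3, and the correction for GC content and length 1 and 2. CRYAB fell in each of these, at -0.54 with voom, -0.59 with total-read scaling and -0.53 with the correction. DNAJB1 fell with total-read scaling and with the correction, and PTGES3 with total-read scaling. In KD cells 57 list genes rose with TNF-α, where 31.1% of all genes tested rose, and 29 fell, where 31.4% fell. Total-read scaling gave 39 that rose and 50 that fell. With the authors' scaling STUB1, SDF2L1 and HSF1 rose in KD cells by 1.37, 1.42 and 1.26, or 0.67, 0.76 and 0.63 with the correction. The largest changes of list genes were falls, of the J-domain genes DNAJC13 at -1.83 and DNAJB4 at -1.70 (-1.30 and -1.02 with the correction). HSP90B1, the HSP90 of the endoplasmic reticulum, changed by -1.28, or -0.85 with the correction.

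Genes whose level moved most like a member over the 8 libraries were ranked by mean absolute difference of centred log2 values, among 4335 genes. For HSPA1A the nearest were PGM1, ATP6V0E1 and H2AFZ, at differences of 0.036, 0.039 and 0.044. For DNAJB1 they were RARA, SLC2A1 and EZR at 0.026, 0.028 and 0.029, and for HSPD1 USP14, GDI2 and PSMD12 at 0.026, 0.034 and 0.036. For BAG3 they were PBX2, RAB7A and PNO1 at 0.020, 0.033 and 0.036. No other member was among these genes.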

How the data were processed

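Total RNA of 8 libraries was sequenced on an Illumina NovaSeq. Per the submitters' processing notes, HISAT2 2.0.5, featureCounts 1.5.0-p3, DESeq2 1.20.0, fastp and GRCh38 were used, with no roles given. The authors deposited FPKM values, from which whole reads were recovered for 100% of values within a tolerance of 0.001. The authors' methods name edgeR. Since FPKM were given in place of counts, log2(FPKM + 1) was tested with limma 3.58.1 in R 4.3.3, with a mean per group over all 8 libraries, a variance trend and 4 residual degrees of freedom. Genes needed 10 reads at the median depth in 2 libraries and 15 reads in all. Adjusted p-values are Benjamini-Hochberg over all 16528 genes, in each of 5 comparisons. Fits were tested on simulated data.

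The members and the chaperone lists were chosen with earlier results of these data known. Named genes are all members, WSB2, NFKBIA, TNFAIP3, HSF1 and HSF2, up to 3 called non-members with the largest changes per list and comparison, and the 3 genes nearest to HSPA1A, DNAJB1, HSPD1 and BAG3 among those with a mean of at least 10 FPKM. HSP90AB1 and the library markers were added to these. Motifs came from RefSeq promoter windows, in which all 10 members were matched by symbol, and GC content and overlaps from GENCODE release 29. Alternatives covered the pseudocount, filter, scaling, variance trend, voom fit, replicate block, correction for GC content and exon length by splines of 5 degrees of freedom, fits on 4 libraries and leaving out each library. Scripts ran in Python 3.11.15 (pandas 2.3.3, numpy 2.4.6, matplotlib 3.10.9).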

Additional observations from a re-analysis of the deposited data

Results flagged for a closer look

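The effect of WSB2 knockdown differed between unstimulated and stimulated cells in 8 of the 10 genes by the test of that difference, the interaction term in limma (percent called as given above). As the log2 effect with TNF-α minus that without, the differences were -1.71 for HSP90AA1, -1.28 for HSPH1 and -0.49 for HSPD1, and 1.15 for HSPB1, 0.64 for DNAJB1, 0.59 for HSPA1A, 0.53 for HSPA1B and 0.47 for BAG3. The adjusted p-values lay between 0.00103 (HSP90AA1 and HSPH1) and 0.0245 (HSPA1A). All 8 rest on the unstimulated KD libraries, which also had more mitochondrial reads and lower GC content than the other 6. Correcting for GC content and exon length left 5 of the 8 called.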

How the results depend on the processing

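Knockdown with TNF-α gave 0 called members under every alternative. Corrected for GC content and exon length, alone and with a replicate block, knockdown without TNF-α had 3 members lower in place of 6 and BAG3 turned to 0.16. For TNF-α in KD cells the correction gave 2 higher and 6 lower (5 with the block), with HSPA1A at -0.19 and HSPA1B at -0.21. In the interaction it gave 2 higher, with HSPA1B at -0.022 and BAG3 at -0.028, and for TNF-α in control cells 1 lower (DNAJB1). The cause was not tested. Total-read scaling gave 4 lower in place of 6 for knockdown without TNF-α, with HSPA8 and BAG3 lost, 1 lower for TNF-α in control cells, 2 higher for TNF-α in KD cells with HSPA1B at -0.0021, and 2 higher in the interaction, and without a filter on low values, which tests more genes, the interaction had 3 higher.

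Leaving out a library gave 0 to 1 member higher and 0 to 2 lower for TNF-α in control cells, 3 to 5 higher and 3 to 4 lower in KD cells, and 2 to 6 higher and 2 to 3 lower in the interaction. For TNF-α in KD cells the calls of HSPA1A, HSPA1B or HSPA8 were lost without KD_unstimulated library 1 or 2 or KD_TNF library 1 or 2, and HSPE1 was called at -0.52 without KD_unstimulated library 2. In the interaction HSPA1A, HSPA1B and HSPD1 lost their calls without KD_unstimulated library 2, control_TNF library 1 or either KD_TNF library, BAG3 lost it without KD_TNF library 1, and HSPA8 was called at 0.42 without control_unstimulated library 2.

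Whether the replicate numbers pair the libraries is not stated, and the correlations do not settle it. In their deviations from group means, same-numbered libraries correlated at 0.35 for unstimulated control with unstimulated KD cells. For the other pairs of groups the correlation was -0.19 to 0.02. A replicate block left the number of called members as it was, with 3 higher and 6 lower for knockdown without TNF-α. With the numbers of the control libraries crossed, a fit added after the data were seen, TNF-α in control cells had 0 higher and 0 lower. Groups of 2 libraries limit the precision, and whether HSPE1 differed between the unstimulated groups cannot be told at this spread.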
